A study of Mus musculus with 2 samples.

Results

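Noncoding RNAs of the nucleus and nucleolus were compared between stimulated CD8 T cells without and with diacylglycerol kinase ζ (DGKζ), an enzyme that removes the lipid second messenger diacylglycerol after T cell receptor engagement. The list holds 10 genes chosen by symbol, and all 10 had a row among the 24013 gene symbols of the deposited table. They are the snoRNA host genes Gas5, Snhg1, Snhg3, Snhg5, Snhg6, Snhg8 and Snhg12, the nuclear RNAs Malat1 and Neat1, and Rmrp. Each had a single transcript row, so no choice between rows was needed.

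The DGKζ-/- library came from animals of 6 weeks and the wild-type library from animals of 7 weeks, both C57BL/6. In both, naive CD8 T cells from spleen were stimulated for 24 hours on plates coated with antibodies to CD3 and CD28. The design has 1 library per genotype, and the labels give neither the number of animals in a library, nor their sex, nor the deleted part of the gene. No difference below therefore has a replicate check, no p-value was computed, and genotype cannot be told apart from age, sex or any other difference between the 2 libraries.

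Most snoRNAs of mammals are cut from the introns of host genes. The host is transcribed and spliced, the intron is released, and the snoRNA within it is trimmed and kept by its core proteins, whereas the joined exons of the noncoding hosts code for no known protein and many are cleared by nonsense-mediated decay. C/D box snoRNAs (Snord) guide ribose methylation and H/ACA box snoRNAs (Snora) guide pseudouridylation, mainly of ribosomal RNA. Many noncoding hosts belong, like ribosomal protein genes, to the TOP class, whose RNAs begin with a tract of pyrimidines and which is tied to cell growth. Malat1 resides in nuclear speckles, Neat1 builds paraspeckles, and Rmrp is the RNA of RNase MRP, which processes pre-ribosomal RNA.

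The start regions of these genes are shown because a pyrimidine tract and a TATA match recur in most of the host regions that have an entry. RefSeq promoter entries of build GRCm38.p6 matched 7 of the 10 genes. For each, the 50 bases before and the 50 bases from the annotated start onward are given, 100 in all, on the strand of the gene. Capitals mark a match to TATANA, and a C followed by an unbroken run of at least 4 C or T that lies within 10 bases before to 20 bases after the start. Gas5 has 2 annotated starts, and the one nearest to its matched transcript is shown.
Gas5, chr1:161035116-161035215, plus strand: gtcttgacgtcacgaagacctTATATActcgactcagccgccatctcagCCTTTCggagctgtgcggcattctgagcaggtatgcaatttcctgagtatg
Snhg1, chr19:8723437-8723536, plus strand: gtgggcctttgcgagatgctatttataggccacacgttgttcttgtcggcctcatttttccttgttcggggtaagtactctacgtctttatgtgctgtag
Snhg3, chr4:132353637-132353736, minus strand: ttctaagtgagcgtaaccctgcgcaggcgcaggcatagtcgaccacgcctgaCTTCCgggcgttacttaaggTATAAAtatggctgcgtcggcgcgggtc
Snhg5, chr9:88522848-88522947, minus strand: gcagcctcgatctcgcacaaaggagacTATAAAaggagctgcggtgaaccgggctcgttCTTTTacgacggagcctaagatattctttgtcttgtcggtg
Snhg8, chr3:123508287-123508386, minus strand: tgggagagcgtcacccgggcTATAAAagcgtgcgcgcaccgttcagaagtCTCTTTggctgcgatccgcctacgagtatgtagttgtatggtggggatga
Snhg12, chr4:132308628-132308727, plus strand: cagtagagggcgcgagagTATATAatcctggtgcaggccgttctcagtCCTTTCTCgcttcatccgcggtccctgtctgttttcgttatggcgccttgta
Malat1, chr19:5802623-5802722, minus strand: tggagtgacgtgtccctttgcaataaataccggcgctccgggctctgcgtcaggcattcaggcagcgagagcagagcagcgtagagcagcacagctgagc

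TATANA was found on the sense strand in 5 of the 6 host regions, those of Gas5, Snhg3, Snhg5, Snhg8 and Snhg12, against 6.28% of all 32851 promoter entries in a window of the same length. On the opposite strand it was found in 3 of the 6, against 5.23%, and in Gas5 and Snhg12 both strands match at overlapping letters because TATATA reads alike in either direction. The pyrimidine run was found in 5 of the 6 host regions, against 35.8% of all entries, and Snhg1 and Malat1 held neither sense-strand match. In Snhg3 the TATA match follows the annotated start at position 23, whereas in the other 4 it precedes it. These motifs were picked after the sequences had been read, and a match is a description of letters only.

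The check of the targeted gene came first. Dgkz was read at 2591 normalized counts in the DGKζ-/- library and at 6714 in the wild-type library, a fold of 0.386 (95% counting interval 0.366 to 0.407). Normalized counts are reads divided by 1 size factor per library, folds are DGKζ-/- over wild type, and the intervals are exact and cover counting error only. After 1 row was taken per gene, the libraries held 13464169 (DGKζ-/-) and 37211969 (wild type) reads, so values of the DGKζ-/- library carry the larger counting error. All 10 CD8 T cell markers were read in both libraries, with Cd8a at 8455 and 13090 normalized counts in the DGKζ-/- and wild-type libraries. Of the 10, 5 had a log2 ratio above 0 and 5 below, with a median of -0.023 and a range from -0.87 (Cd3g) to 0.29 (Cd2), with Cd8a at -0.63 and Cd3e at -0.48. Summed levels of the marker lists of other cells were 2276 and 3093 for B cells, 5063 and 3532 for CD4 and regulatory T cells, 276 and 292 for myeloid cells, 4368 and 4121 for NK cells and 60.0 and 77.6 for erythroid cells, each DGKζ-/- first. Most of the CD4 and regulatory T cell sum was Ctla4 (4010 and 2209), with Cd4 at 53.2 and 171. Most of the NK sum was Eomes (1861 and 956) and Nkg7 (1734 and 2163), with Ncr1 at 0 and 4.08 and Klrb1c at 0 and 5.25. These sums therefore do not measure how many such cells were present. All 8 measured B cell markers were lower in the DGKζ-/- library (median log2 ratio -0.80), with H2-Eb1 at -1.14 and Ms4a1 at -0.85. Cd74, the most highly read of them (1252 and 1287 normalized counts), was at only -0.040, and its fold interval included 1. Among the CD4 and NK lists Cd4 (-1.52) and Klrd1 (-1.49) were lower, Ctla4 (0.86) and Eomes (0.95) higher, and Ikzf2 (-0.40), Nkg7 (-0.32) and the myeloid genes Mpeg1 (0.52) and Cd68 (-0.37) lay closer to 0. Xist was read at 9206 normalized counts in the DGKζ-/- library and 14.0 in the wild-type library. The 4 Y-linked genes on the list had 0 reads in the DGKζ-/- library, against 921 to 2192 normalized counts in the wild-type library. By these genes the DGKζ-/- library read as female and the wild-type library as male, although the labels give no sex. The part of these differences in the results below was not tested, and in bulk RNA fewer cells of a type cannot be told apart from less RNA per cell.

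None of the 10 noncoding genes differed 2-fold between the libraries. A gene counted as 2-fold different where its log2 ratio, taken with a pseudocount of 10 normalized counts, reached 1 or -1 and its mean was at least 50. By that rule 2.60% of all 10518 compared genes differed, 137 (1.30%) higher and 136 (1.29%) lower in the DGKζ-/- library (112 and 177 where the libraries were scaled to equal totals), so 0 of 10 is close to what the table holds in general. The log2 ratios of the 10 ranged from -0.52 (Neat1) to 0.33 (Snhg6) with a median of -0.079, beside a median of 0.055 over all compared genes. Only Snhg3, Snhg5 and Snhg8 lay between the lower and upper quartile of all compared genes, which stood at -0.14 and 0.22.

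**Figure D1:**
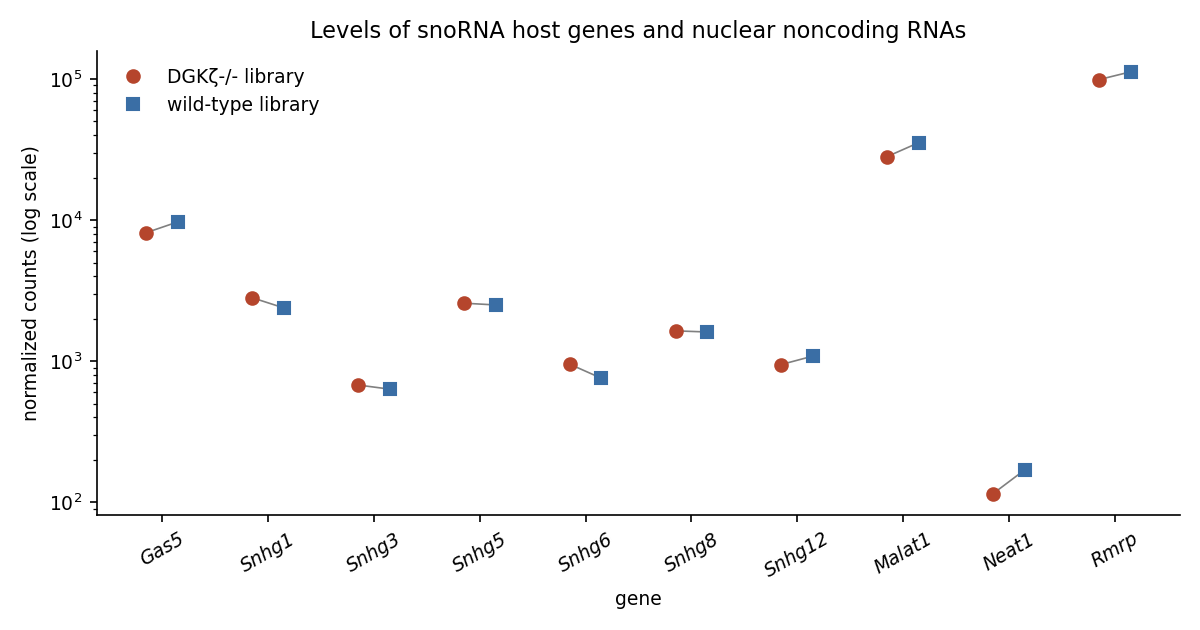
Normalized counts (log axis) of each noncoding gene in the DGKζ-/- library (circles, left) and in the wild-type library (squares, right), 1 value per library with no error bar. The genes span from about 115 and 170 normalized counts for Neat1 to 98840 and 112305 for Rmrp, and the step within each gene is small beside that span.

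Gas5, named for its accumulation in growth-arrested cells, was the most highly read of the hosts. It stood at 8146 normalized counts in the DGKζ-/- library and 9722 in the wild-type library, from 4750 and 16673 reads. That is a fold of 0.838 (0.811 to 0.865), at percentile 16.4 of the log2 ratios of all compared genes. Snhg12, host of 4 snoRNAs in the table, was also lower in the DGKζ-/- library. It was read at 947 normalized counts there and 1087 in the wild-type library, a fold of 0.871 (0.791 to 0.958).

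Snhg6 and Snhg1 were higher in the DGKζ-/- library. Snhg6, host of Snord87, was read at 952 normalized counts in the DGKζ-/- library and 756 in the wild-type library, a fold of 1.26 (1.14 to 1.39) and the highest ratio of the 10. Snhg1, which holds Snord22 and a row of further C/D box snoRNAs, stood at 2814 and 2382 normalized counts in the DGKζ-/- and wild-type libraries. Its fold was 1.18 (1.12 to 1.25), at percentile 78.2 of all compared genes. The intervals of both genes stayed above 1.

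The remaining 3 hosts had folds whose counting intervals included 1. Snhg3, host of the H/ACA snoRNAs Snora73a and Snora73b, was read at 677 normalized counts in the DGKζ-/- library and 633 in the wild-type library, a fold of 1.07 (0.951 to 1.20). Snhg5, host of Snord50a and Snord50b, stood at 2576 and 2501, a fold of 1.03 (0.970 to 1.09). Snhg8, host of Snora24, stood at 1640 and 1609, a fold of 1.02 (0.946 to 1.10). Counting error alone therefore leaves room for a change of either sign in these 3 genes, of no more than about 1.20-fold upward.

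The nuclear and processing RNAs were all lower in the DGKζ-/- library. Malat1 was read at 28172 normalized counts in the DGKζ-/- library and 35414 in the wild-type library, a fold of 0.796 (0.782 to 0.809). Its share of all reads was 0.122% and 0.163%. Neat1 was the lowest of the 10 in both libraries, at 115 and 170 normalized counts from 67 and 291 reads. Its fold of 0.677 (0.511 to 0.886) has the widest interval of the list and lies at percentile 6.20 of all compared genes. The Neat1 row matched the short transcript of the gene in the annotation, and no row for the long, paraspeckle-forming transcript was used.

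Rmrp gave far more reads than any other gene of the list. It stood at 98840 normalized counts in the DGKζ-/- library and 112305 in the wild-type library, 0.428% and 0.518% of all reads, a fold of 0.880 (0.872 to 0.888). Its sister RNA Rpph1, the RNA of RNase P, was read at 137574 and 140019 normalized counts, a fold of 0.983 (0.975 to 0.990). Both RNAs are made by RNA polymerase III and carry no poly(A) tail. The labels name the library kit but no poly(A) selection or ribosomal depletion step. Rn45s, the ribosomal precursor, made up 2.53% of the DGKζ-/- and 2.81% of the wild-type reads, a fold of 0.956 (0.952 to 0.959).

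Per kilobase of the GENCODE M21 transcript matched to each row, Rmrp (271 bases) led in both libraries at 364722 and 414411 normalized counts per kb in the DGKζ-/- and wild-type libraries. Malat1 followed in the wild-type library at 5071 per kb, ahead of Snhg1 at 3937 and Gas5 at 3804. In the DGKζ-/- library Snhg1 stood at 4652 per kb, ahead of Malat1 at 4034 and Gas5 at 3187. The ratio of Snhg1 to Malat1 reads was 1.49 times as high in the DGKζ-/- library (1.40 to 1.58), a change larger than counting error. That their order also exchanged depends on the matched transcript lengths, 605 bases for Snhg1 and 6983 for Malat1. Neat1 was last, at 38.3 and 56.5 per kb. The order of Gas5 depends on its transcript, since its row matched a retained-intron form of 2556 bases.

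Ratios within a library do not depend on how the libraries are scaled. Of the 45 pairs of these genes, 33 had a ratio of reads whose counting interval for the DGKζ-/- over wild-type change excluded 1. The share among pairs of other genes was not computed, so this count does not set these genes apart. Over all compared genes the median absolute log2 ratio was 0.19. The widest gap was between Snhg6 and Neat1, whose ratio was 1.86 times as high in the DGKζ-/- library (1.39 to 2.51). Among hosts, Gas5 relative to Snhg6 was at 0.666 times the wild-type ratio (0.599 to 0.741), and Snhg1 relative to Snhg12 at 1.36 times (1.21 to 1.52). So the hosts did not share a single fold at this depth, although each stayed within 1.26-fold of the deposited scale. These pairs were singled out after their values were seen.

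**Figure D2:**
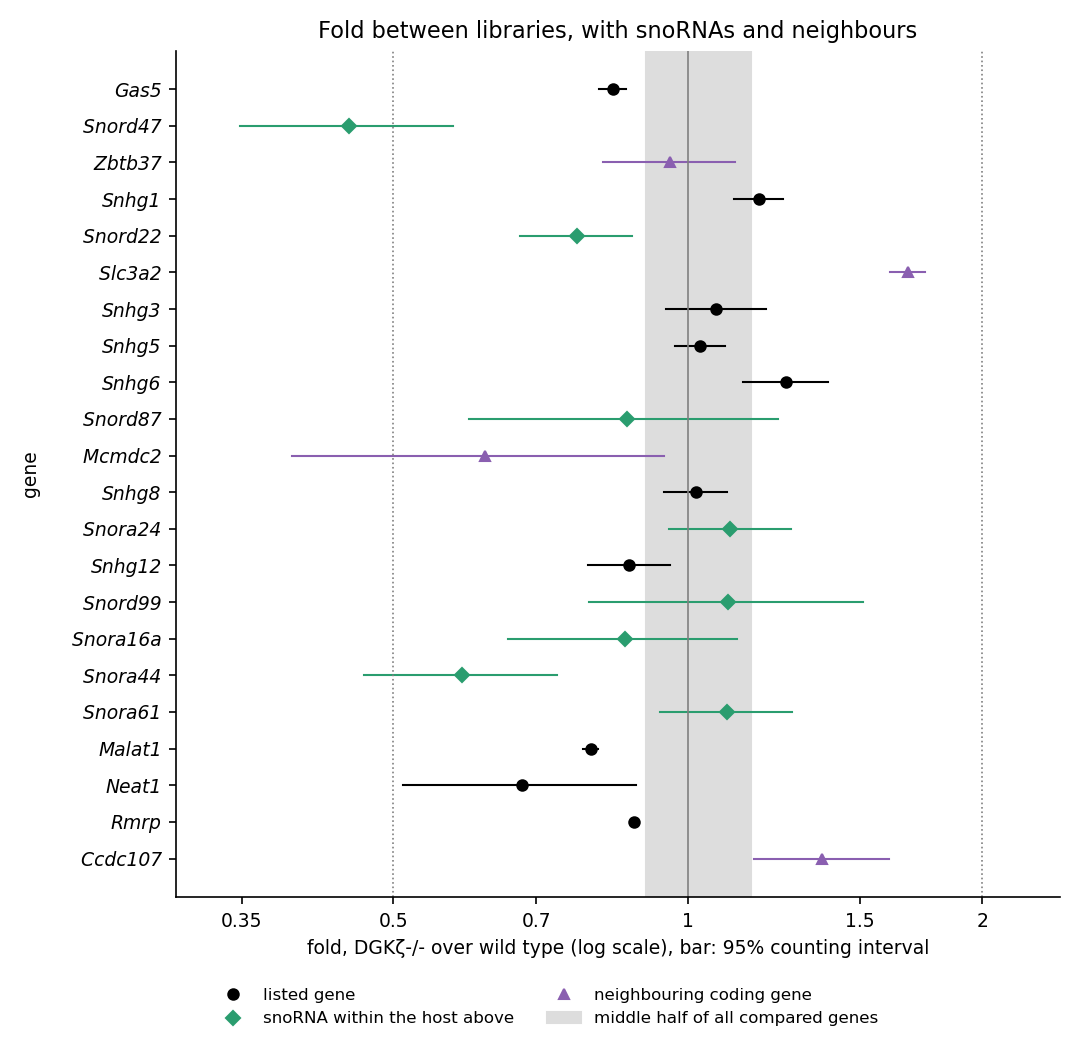
Fold of each noncoding gene (circles), of the snoRNAs inside its host (diamonds) and of 4 neighbouring coding genes (triangles), DGKζ-/- over wild type on a log axis, with 95% counting intervals as bars and the band between the quartiles of all compared genes in grey. Snord47 lies left of the dotted line at 0.5 while its host Gas5 is at 0.838, and Slc3a2 lies at 1.68 while Snhg1 is at 1.18.

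The hosts can be set beside the snoRNAs they release. The list of intronic snoRNAs named 28 RNAs of these hosts, of which 8 had a row, for Gas5, Snhg1, Snhg6 and Snhg8 1 each and for Snhg12 4. Of the 8, 1 was called 2-fold lower (Snord47) and 0 higher, by the rule that called 1.29% of all compared genes lower and 1.30% higher. These rows are shorter than a usual sequencing fragment, and reads of an unspliced host can fall on them, so their part in the values was not tested. The sequences of the snoRNA that differed most, of the one that differed most among those of Snhg12, and of a pair of their neighbours in Snhg12 are printed from the GENCODE M21 transcripts (build GRCm38), with the C box TGATGA and the last CTGA (D box) of C/D RNAs and the ACA near the end of H/ACA RNAs in capitals. No ACA was found within 4 bases of the end of Snora44 as annotated.
Snord47, chr1:161038082-161038158, plus strand: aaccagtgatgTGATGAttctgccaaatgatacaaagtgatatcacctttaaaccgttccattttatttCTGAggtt
Snord99, chr4:132310691-132310764, plus strand: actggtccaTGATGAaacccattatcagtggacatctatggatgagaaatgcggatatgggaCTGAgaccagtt
Snora44, chr4:132309941-132310069, plus strand: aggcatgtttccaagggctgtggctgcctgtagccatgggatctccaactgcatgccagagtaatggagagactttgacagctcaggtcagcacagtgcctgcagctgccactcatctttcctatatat
Snora61, chr4:132310240-132310369, plus strand: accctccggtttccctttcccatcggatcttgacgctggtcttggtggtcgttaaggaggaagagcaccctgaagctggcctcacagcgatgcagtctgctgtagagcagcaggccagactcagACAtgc

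Snord47, which lies in an intron of Gas5, was read at 129 normalized counts in the DGKζ-/- library and 286 in the wild-type library, from 75 and 490 reads. Its fold was 0.450 (0.348 to 0.575), its log2 ratio -1.09, and it stood at percentile 0.989 of all compared genes. With a pseudocount of 50 the log2 ratio was -0.91 and the call was lost. Per 100 reads of Gas5 there were 1.58 reads of Snord47 in the DGKζ-/- library and 2.94 in the wild-type library. That ratio to the host was 0.537 times as high in the DGKζ-/- library (0.415 to 0.688).

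Snord22 also stood lower against its host. It was read at 489 normalized counts in the DGKζ-/- library and 635 in the wild-type library (fold 0.770, 0.673 to 0.878), while Snhg1 was higher, so that 17.4 and 26.7 reads of Snord22 fell on each 100 reads of Snhg1. The ratio to the host was 0.651 times the wild-type one (0.563 to 0.752). Snord87 relative to Snhg6 had a ratio of 0.689 with an interval from 0.468 to 0.999, resting on 41 and 139 reads. Snora24 had a ratio to Snhg8 of 1.09 (0.922 to 1.27), and the transcript matched to Snhg8 includes the sequence of Snora24, so the same reads can count in both rows.

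The 4 snoRNAs of Snhg12 come from 1 primary transcript and did not share a fold. Snora44 was read at 163 normalized counts in the DGKζ-/- library and 277 in the wild-type library, a fold of 0.588 (0.467 to 0.735). Snora61 stood at 389 and 355, a fold of 1.10 (0.937 to 1.28). Relative to Snhg12, Snora44 had a ratio of 0.675 (0.525 to 0.862) and Snora61 one of 1.26 (1.05 to 1.51), with Snora16a at 0.990 (0.739 to 1.31) and Snord99 at 1.26 (0.896 to 1.76). Over all 8 snoRNAs the interval of the ratio to the host was below 1 for 4, above 1 for 1 and included 1 for 3. How often such intervals exclude 1 among other pairs of rows was not computed. These counts therefore describe the 8 only and show no general shift of snoRNAs against hosts.

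**Figure D3:**
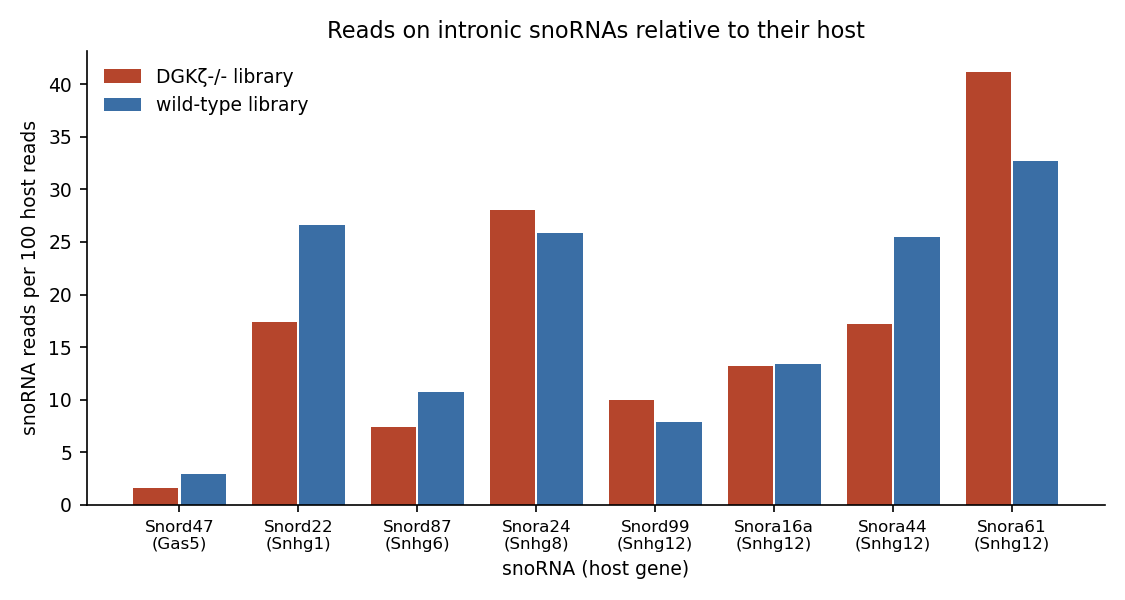
Reads on each intronic snoRNA per 100 reads of its host gene (axis from 0), in the DGKζ-/- library (left bars) and the wild-type library (right bars), 1 library each with no error bar. The DGKζ-/- bar is the lower one for Snord47, Snord22, Snord87, Snora44 and, by little, Snora16a (13.2 against 13.4). It is the higher one for Snora61, Snord99 and Snora24.

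Among all snoRNA and scaRNA rows of the table, 61 of 114 had a mean of at least 50 normalized counts, and Snord47 was the only one called. Snord17 came closest of the others, at a log2 ratio of -0.93 (fold 0.524, 0.489 to 0.562) from 964 and 5407 reads. Whether Snord17 is called under the other scalings was not computed. The median log2 ratio of the 61 rows was -0.037, with 28 above and 33 below 0, and that of the 32 C/D box rows (-0.025) was near that of the 24 H/ACA rows (-0.042). Scarna2, a Cajal body RNA that guides modification of small nuclear RNA, was read at 1475 normalized counts in the DGKζ-/- library and 869 in the wild-type library, a fold of 1.70 (1.56 to 1.85). Terc, the RNA template of telomerase, stood at 293 and 159, a fold of 1.85 (1.52 to 2.25). Scarna10 was lower, at a fold of 0.758 (0.695 to 0.825), Scarna13 was at 0.963 (0.897 to 1.03), and Rnu11 (0.864, 0.582 to 1.25), an RNA of the minor spliceosome, and Rnu73b (0.686, 0.448 to 1.02) had intervals that included 1. The 8 measured RNAs of the small noncoding list had a median of -0.060 (-0.15 at equal totals), with 0 called.

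Coding genes whose annotation lies within 300 bases of a listed gene were read as well, a rule added after the files had been seen. Slc3a2, the heavy chain of the amino acid transporter CD98, starts beside Snhg1 on the opposite strand. It was read at 5975 normalized counts in the DGKζ-/- library and 3562 in the wild-type library, a fold of 1.68 (1.61 to 1.75), against 1.18 for Snhg1. The ratio of Slc3a2 to Snhg1 was thus 1.42 times as high in the DGKζ-/- library (1.32 to 1.52). Zbtb37, a zinc finger gene that starts beside Gas5 on the opposite strand, stood at 374 and 390 normalized counts, a fold of 0.958 (0.819 to 1.12).

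Ccdc107, which starts beside Rmrp, was at a fold of 1.37 (1.17 to 1.60), and Mcmdc2, which ends at Snhg6, at 0.620 (0.394 to 0.945) from 27 and 128 reads. The kit does not mark the strand, so where annotations overlap reads of such a pair cannot be told apart. This holds for Zbtb37 with Gas5 and for Mcmdc2 with Snhg6. The annotations of Slc3a2 and Snhg1, and of Ccdc107 and Rmrp, do not overlap. Slc3a2 was higher in the DGKζ-/- library by more than the host beside it.

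Other noncoding hosts were few in the table. Of 13 listed, 6 had a row and 3 reached a mean of 50, with 0 called. Snhg7 was read at 1084 normalized counts in the DGKζ-/- library and 899 in the wild-type library (fold 1.21, 1.10 to 1.32), Snhg4 at 969 and 1022, and Snhg9 at 66.9 and 62.4. Their median log2 ratio was 0.087 (0.0091 at equal totals).

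Most coding snoRNA hosts had a log2 ratio slightly above 0. Of 33 such genes, which include ribosomal protein genes and the translation factor gene Eif4a1, 29 were above 0, beside 58.2% of all compared genes, and the median was 0.19 (0.098 at equal totals), with 0 called. The largest ratios were -0.41 for Hspa8, a constitutive chaperone, 0.36 for Rpl10 and 0.33 for Eif4a1. The TOP messenger RNAs, a list that shares 7 genes with it, had 37 of 40 above 0 and a median of 0.19 (0.098 at equal totals), with Rps16 at 0.42, Pabpc1, the poly(A)-binding protein gene, at -0.38 and 0 called. The 7 noncoding hosts had 5 above 0 and a median of 0.042 (-0.047 for Snhg5, the middle gene, at equal totals).

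Most genes of the proteins that build snoRNPs also lay above 0. Of 18 genes 16 had a log2 ratio above 0, the median was 0.18 (0.087 at equal totals) and 0 were called. Ruvbl2, an ATPase of snoRNP assembly, was at 0.38, Pih1d1, part of the same assembly machine, at 0.31, and Naf1, an assembly factor of H/ACA particles, at -0.37. The 20 factors of nonsense-mediated decay had 11 above 0 and a median of 0.046 (-0.043 at equal totals), with 0 called. Upf1, the central helicase of that pathway, was at -0.55, Smg6, its endonuclease, at -0.45, and Rbm8a, a core protein of the exon junction complex, at 0.49.

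The protein partners of Malat1, Neat1 and Rmrp were set beside them. The 22 nuclear speckle genes had 11 above 0 and a median of 0.010 (-0.079 at equal totals), with 0 called. Srrm2 and Srrm1, large proteins of the speckle, had the lowest values, -0.68 and -0.60, and Srrm2 was read at 8362 normalized counts in the DGKζ-/- library and 13381 in the wild-type library, while Hnrnpc was at 0.33. The 20 paraspeckle genes had 11 above 0 and a median of 0.044 (-0.045 at equal totals), with 0 called. Sfpq, a core paraspeckle protein, was at -0.75, with 5682 normalized counts in the DGKζ-/- library and 9555 in the wild-type library, and Ss18l1 was at -0.51. The 11 protein genes of RNase MRP and RNase P had 9 above 0, a median of 0.097 (0.0083 at equal totals) and 0 called, with Pop7 at 0.36, Rpp40 at 0.22 and Rpp25l at 0.22.

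**Figure D4:**
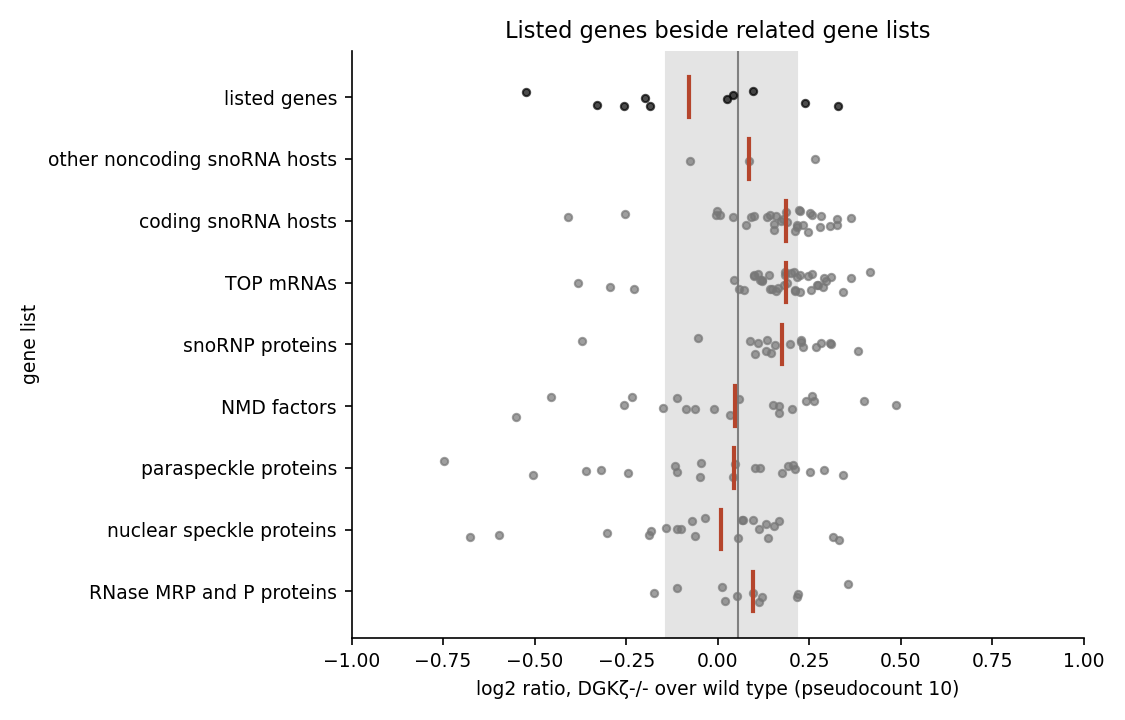
Log2 ratios (DGKζ-/- over wild type, pseudocount 10) of the genes with a mean of at least 50 in the noncoding list and in 8 related lists, 1 point per gene, with list medians as vertical bars, the median of all compared genes as a line and their quartiles as a grey band. The medians of the coding host, TOP and snoRNP lists stand at 0.18 to 0.19, and that of the noncoding list at -0.079.

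Of the 11 measured long noncoding RNAs outside the list, 2 were called higher in the DGKζ-/- library, 0 were called lower, and the median log2 ratio was 0.14 (0.049 at equal totals). The called ones were Xist and its antisense partner Tsix, which cannot be separated without strand. Xist is made from the inactive X chromosome of females. Tug1, a nuclear RNA, was read at 1543 normalized counts in the DGKζ-/- library and 2128 in the wild-type library (fold 0.725, 0.673 to 0.780), and its 3 rows had log2 ratios from -0.46 to -0.41. Mir17hg, host of the miR-17 cluster, stood at 581 and 880, a fold of 0.660 (0.585 to 0.743), and Kcnq1ot1 at 5390 and 6039. Dancr was at a fold of 1.24 (1.08 to 1.42) and Pvt1 at 1.19 (1.04 to 1.36), while the folds of Jpx, Ftx and 2900097C17Rik had intervals that included 1 and Firre was at 1.49 (1.03 to 2.12).

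The authors' deposited table gave the same signs for the 10 genes. In it the log2 fold changes ran from -0.26 (Malat1) to 0.23 (Snhg6), and the smallest p-value was 0.251, with an adjusted p-value of 0.999 for each. In the authors' deposited table, 0 of the 30433 rows with an adjusted p-value were under 0.05. Dgkz itself had a log2 fold change of -0.20 in the authors' deposited table, against a log2 ratio of -1.37 from the deposited counts, while for Gas5 these values were -0.20 and -0.25 and for Malat1 -0.26 and -0.33.

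The direction of a gene this close to 1 depends on the scaling. Both other scalings lowered every ratio, moving the median of all compared genes by -0.087 (equal totals) and -0.055 (recentring). Gas5, Snhg12, Malat1, Neat1 and Rmrp, already below 0, therefore could not change sign. Of the genes above 0, Snhg1, Snhg3 and Snhg6 stayed higher in the DGKζ-/- library under all 3 scalings, whereas Snhg5 and Snhg8 changed sign. At equal totals Snhg5 was at -0.047 and Snhg8 at -0.063, and after recentring to a median of 0 they were at -0.013 and -0.028. Snhg3 was at 0.0074 at equal totals.

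**Figure D5:**
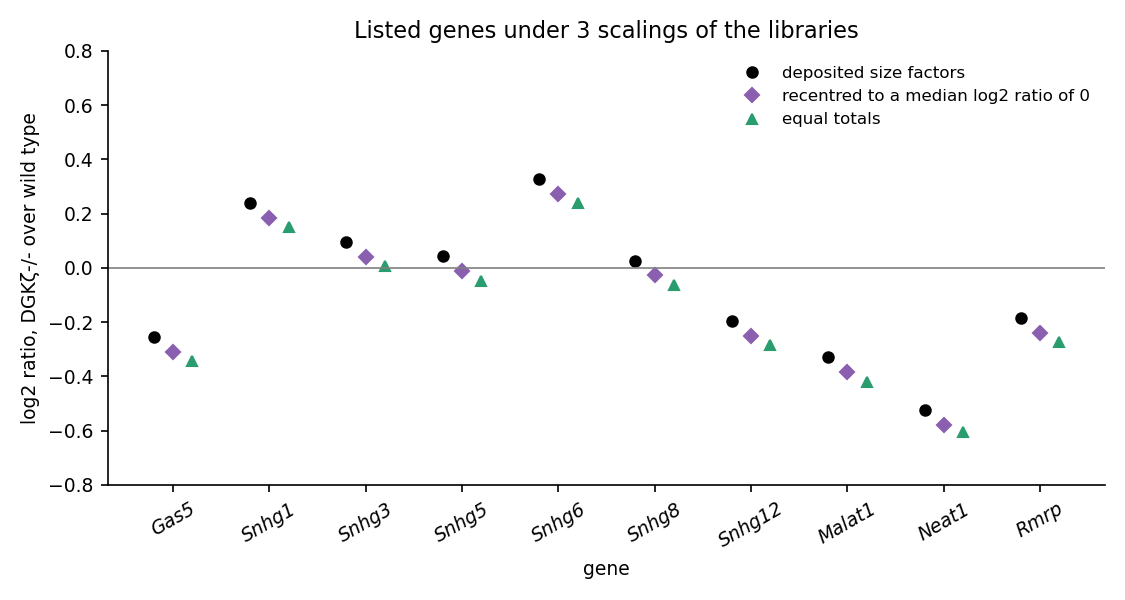
Log2 ratios (DGKζ-/- over wild type) of the 10 noncoding genes with the deposited size factors (circles), after recentring all compared genes to a median of 0 (diamonds) and with equal library totals (triangles), 1 value each. Snhg5 and Snhg8 cross the zero line, and the other genes keep their side. Both other scalings lower every ratio, so only genes above the line could cross it.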

How the data were processed

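RNA was sequenced from 1 DGKζ-/- and 1 wild-type library. Per the submitters' processing notes, STAR version 2, DESeq and build mm9 were used, with no role stated, and neither a counting program nor an annotation release is named. The authors deposited normalized read counts per RefSeq transcript row, a signal divided by 1 size factor per library. Dividing by the smallest nonzero value of a library gave whole numbers for 100% of values (relative tolerance 0.0001), which recovers the reads, with 1 read worth 1.71 (DGKζ-/-) and 0.583 (wild type) normalized counts. The authors also deposited log2 fold changes, p-values, adjusted p-values and a test score per row, and the score was not used. In 1 row (Alg6) an extra tab moves the values, and it was left out. The row with the highest mean stood for each gene. With 1 library per group a count test has no residual degrees of freedom, so none was run. Intervals are Clopper-Pearson or exact conditional odds ratio intervals at 95% (SciPy 1.17.1, Python 3.11.15), and cover counting error only, since PCR copies could not be told apart. The calling rule and intervals were tested on data simulated with counting error and planted folds only. That test does not cover variation between animals or libraries.

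The members and lists were chosen with earlier results of these data known. The text names all members, their snoRNAs, the measured genes of the other noncoding lists and up to 3 genes per other list with the largest absolute log2 ratios. Alternatives were 2 other scalings, pseudocounts of 1 and 50, minimum means of 10, 200 and none, and other transcript rows. Promoter and snoRNA sequences are of build GRCm38. Neighbouring genes and the place of snoRNAs within their hosts were also taken from annotations of that build, not of mm9. A few genes that these rules name are not reported here.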

Additional observations from a re-analysis of the deposited data

How the results depend on the processing

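No listed gene became 2-fold different under any of the 9 alternatives. The number with a log2 ratio above 0 was 5, and 3 at equal totals and after recentring. The median of -0.079 was 0.027 at a minimum mean of 200, which leaves out Neat1, and otherwise lay between -0.17 and -0.079. Of all compared genes 273 differed 2-fold, 418 at a minimum mean of 10, 164 at 200, 551 with no minimum and 163 with a pseudocount of 50, where fewer or more genes were compared or low genes were damped. With no minimum the median of all genes moved by -0.14. Of 10 related lists, 6 had a median above that of all compared genes, and 6 to 9 under the alternatives. Of 60 single-gene values under alternatives 52 stayed within their counting interval and 8, all under another scaling, did not. All 48 snoRNA values stayed within theirs. These counts include the alternatives on transcript rows, which could not move a value because each of these genes and snoRNAs had a single row. Without the genes shared with the TOP list, an alternative added after seeing the data, the coding hosts had a median of 0.18. No paired analysis was possible because each genotype has 1 library, and for the same reason no replicate could be left out. Depth limits Neat1 (67 and 291 reads) and Snord87 (41 and 139) most.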
